A study of Drosophila melanogaster with 3 samples.

Results

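The genes described here are those for the structural proteins of the insect cuticle. They are the protein-coding genes of the Ensembl annotation whose symbol begins with Cpr and a digit, Ccp84, Lcp and a digit, or Twdl. Of 13945 protein-coding genes on 6 chromosome arms, 117 met that rule: 70 Cpr, 7 Ccp84, 15 Lcp and 25 Twdl genes. Of these, 45 lie on arm 3L, 31 on 3R, 27 on 2R, 8 on X and 6 on 2L. Their median span was 983 bp, against 2166 bp for all protein-coding genes. Members whose spans lie under 20 kb apart were joined into clusters, which gave 17 clusters with 89 members and left 28 members on their own. The widest gap inside a cluster was 10.5 kb, between Cpr49Ad and Cpr49Ae, and the narrowest gap between members not joined was 32.1 kb, between TwdlT and Cpr97Ea.

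Binding of shaven (sv), a Pax-family transcription factor of Drosophila melanogaster, had been mapped by ChIP-seq, in which DNA bound to the protein is precipitated with an antibody and sequenced. The larvae carried a transgene that stably expresses the sv-RD isoform joined to GFP at its C-terminus, and the sample descriptions give an anti-GFP antibody for the precipitation, whereas the antibody field names sv. All chromatin came from whole wandering larvae of the third instar, males and females pooled, and the 3 biological replicates form 1 group, without a control genotype or any other condition. No source used here gives the promoter that drives the transgene, or states that the native sv gene was removed. Without another group no test between conditions was possible, and whole larvae mix all tissues, so a peak present in few cells cannot be told apart from a weak peak present in many.

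As background, the larval cuticle is a layer of chitin fibres and proteins that the epidermis secretes anew at each moult. Most Cpr, Ccp84 and Lcp genes encode proteins with the Rebers-Riddiford domain, which binds chitin, and the Twdl genes encode the Tweedle proteins, which shape the body through the cuticle. Many of these genes arose by tandem duplication, are short, and are switched on together for a limited time in each moulting cycle under the control of ecdysone. sv itself acts in the developing sensory bristles, whose shaft and socket cells secrete cuticle of their own, and in cone and pigment cells of the compound eye.

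Almost no cuticle protein gene held a peak of the deposited optimal set, the 3823 peaks that the authors retained by a reproducibility threshold. A peak of this set need not have a matching summit in every replicate. A summit, the highest point of a peak, lay in the span of 1 of 117 members (0.855%), against 9.94% of all protein-coding genes. No member had an optimal summit within 500 bp of any of its annotated starts, against 19.5% of all genes. By either criterion 1 member had one, against 23.1%. Short genes have less room for a summit. Of 98 members with a span of at most 2 kb 0 held an optimal summit, against 2.15% of all genes of that size, a share so low that a count of 0 in 98 is near it. No test was made of these differences, since the genes were chosen with earlier results of these data known.

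The replicates gave the same picture. Among the strongest 3823 peaks of each replicate's own list, the share of members with a summit in the span was 0.855% in each of the 3 replicates, while 9.82%, 10.4% and 10.5% of all protein-coding genes had one. It was the same gene, Cpr73D, each time. The whole relaxed lists hold 30000 peaks each and include background. In them 18 members (15.4%) had a summit in replicate 1, against 46.5% of all genes. In replicate 2 the count was 24 members (20.5%), against 48.8%. In replicate 3 it was 25 members (21.4%), against 49.9%. The mean over the replicates was 19.1% ± 3.24 (SD, n = 3) for the members and 48.4% ± 1.71 (SD, n = 3) for all genes. The members' share lay below that of all genes in every replicate and the ranges did not overlap. The replicate shares were not matched for gene span, and the members have shorter spans than all genes. Members with a relaxed summit in all 3 replicates numbered 4 (Cpr51A, Cpr64Ad, Cpr73D and TwdlG, the last named after its values were seen), a further 45 had one in 1 or 2 replicates, and 68 had none. These last counts were not made over all genes, so whether they are low for genes of this length is not known.

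**Figure D1:**
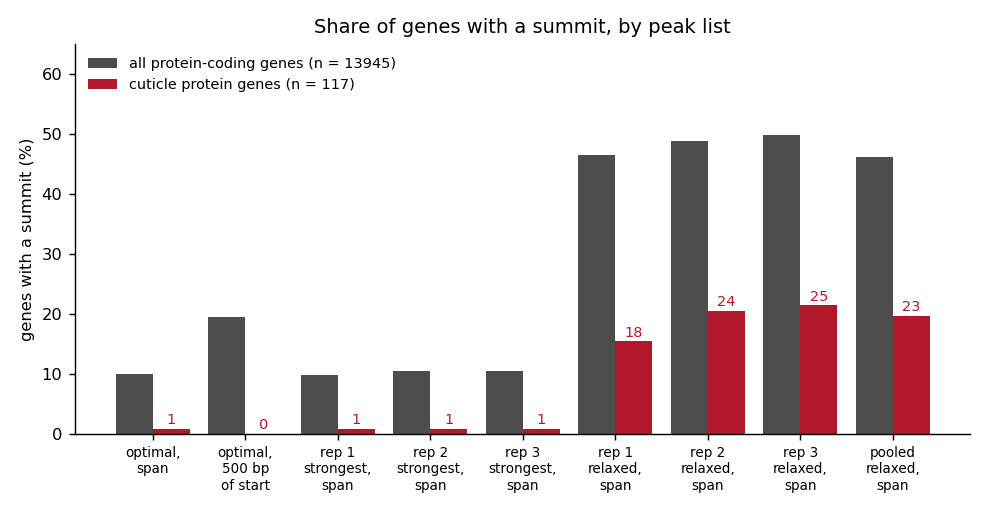
Share of genes (%) with a summit, for all 13945 protein-coding genes (grey) and the 117 cuticle protein genes (red, with the number of members above each bar). Each pair of bars is 1 peak list and 1 criterion, either a summit in the gene span or within 500 bp of a start; the red bars stay at 0 or 1 member in the strong lists and reach 25 members in the relaxed list of replicate 3, always under the grey bar.

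The exception was Cpr73D (FBgn0036680, 3L:16939100-16957689, minus strand), a long member of 18590 bp that lies outside every cluster. Its optimal peak ran from 16956592 to 16957111 with the summit at 16956852, ranked 2574 of 3823 and had a signal of 93.8, below the median of 114 for that list. The summit lay in an intron of Cpr73D, 837 bp from its start. It also lay in the span of the overlapping gene Ogdh, and the nearest annotated start, 587 bp away, was one of Ogdh. Ogdh encodes a subunit of the oxoglutarate dehydrogenase of the citric acid cycle. In replicate 1 the matching summit lay 1 bp away and ranked 1427 with a signal of 61.9. In replicate 3 it lay 9 bp away and ranked 2354 with a signal of 29.8. In replicate 2 no summit lay within 200 bp, and the strongest in the gene, rank 3401 with a signal of 22.0, lay 350 bp away and 487 bp from the start of Cpr73D. That summit of replicate 2 lay 120 and 86 bp from other pooled summits, of ranks 4959 and 27794, and 133 bp from another summit of replicate 1, of rank 5455. The optimal summit was thus matched in replicates 1 and 3 and had no match in replicate 2. Signals are the authors' values and were compared only within a list. The pooled relaxed list put 7 summits in the span, including one of rank 4081, 1497 bp from the optimal summit, and one of rank 5694 near the far end of the gene, 16295 bp from the start. The replicates held summits near the far end at ranks 4074, 4086 and 11843.

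The 101 bases centred on that summit and the 60 bases before the annotated start of Cpr73D are shown because this is the only member with an optimal peak. Both come from the NCBI Release 6 genome, which has the dm6 coordinates, and are given from 5′ to 3′ on the strand named. They have no capitals: neither holds the letters CGATA, which are set in capitals in the windows of other summits, and the second lacks TATAAA, which is set in capitals in the stretches before other members' starts.
Cpr73D summit (chr3L:16956802-16956902, plus strand): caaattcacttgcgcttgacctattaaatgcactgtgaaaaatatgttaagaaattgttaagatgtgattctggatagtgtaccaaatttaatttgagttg
Cpr73D start (chr3L:16957690-16957749, minus strand): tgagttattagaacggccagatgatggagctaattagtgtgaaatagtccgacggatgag

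The members lay far from the nearest optimal summit. The median distance from the span was 18545 bp for the 117 members, with quartiles of 11631 and 28070 bp, against 6416 bp for all protein-coding genes and 9660 bp for those of at most 2 kb. Within 10 kb, 27 members (23.1%) had an optimal summit, against 59.0% of all genes. Measured to the strongest peaks of each replicate, the members' median was 22449, 15400 and 17269 bp, a mean of 18373 ± 3652 bp (SD, n = 3). For all genes it was 6965, 6620 and 6134 bp, a mean of 6573 ± 417 bp (SD, n = 3). The lowest of the members' values was above the highest of those for all genes. Members in clusters had a median of 19400 bp and those outside clusters 14215 bp.

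**Figure D2:**
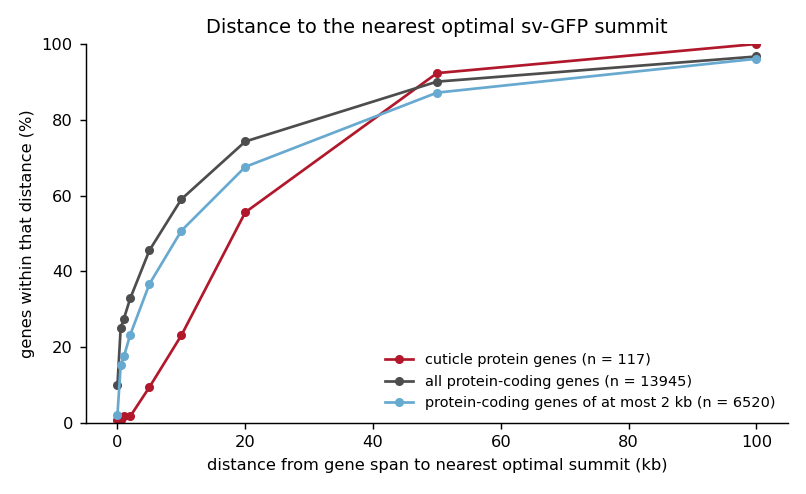
Share of genes (%) whose span lies within a given distance (kb) of the nearest optimal summit, for the cuticle protein genes (red), all protein-coding genes (grey) and those of at most 2 kb (blue). At 10 kb the red curve is at 23.1% and the grey at 59.0%, and by 50 kb the curves have crossed, with 92.3% of the cuticle protein genes and 90.1% of all genes.

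The deficit was one of near summits, not of far ones. Up to 20 kb the members stayed below all genes (55.6% against 74.3%), but 9 members (7.69%) lay more than 50 kb from an optimal summit, against 9.94% of all genes. The family medians were 15950 bp for the Cpr genes, 19969 bp for the Lcp genes, 20094 bp for the Twdl genes and 66154 bp for the Ccp84 genes. Neighbouring members often share their nearest summit, so the distances are not independent cases, and the same holds for the median over all members. All Ccp84 genes were measured to the same summit, of rank 3600, so their median describes a single locus. The 3 members farthest from an optimal summit were all of the Ccp84 cluster, Ccp84Ag at 71642 bp, Ccp84Af at 69442 bp and Ccp84Ae at 67923 bp. The 3 nearest after Cpr73D were Cpr76Ba at 849 bp, Cpr47Eg at 2121 bp and Cpr66Cb at 2144 bp. The summit near Cpr66Cb ranked 2247 and lay 46 bp upstream of the start of CG7083.

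Other tandem families also lay far from optimal summits. The Osi genes, a family of 25 insect membrane proteins of which 21 lie in 1 cluster, had a median of 28884 bp to the nearest optimal summit. The 85 cytochrome P450 (Cyp) genes had a median of 15967 bp, and the 179 odorant, gustatory and ionotropic receptor genes (Or, Gr and Ir) had a median of 17804 bp. None of these genes held an optimal summit in its span. These families were chosen for comparison because they too lie in tandem clusters, and the difference from them was not tested.

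Inside the 17 clusters, which cover 284.2 kb, there was 1 optimal summit, a density of 0.352 per 100 kb. Over the 6 arms the density was 2.86, or 3.18 between the first and the last optimal summit of each arm. The other tandem families had densities near that of the cuticle clusters, with 0 in 142.6 kb for Osi, 0.574 per 100 kb for Cyp (1 summit in 17 clusters) and 0.372 for the receptors (1 summit in 30 clusters). The strongest 3823 peaks of replicates 1, 2 and 3 put 3, 2 and 1 summits inside the cuticle clusters, in the Cpr47E, Lcp65A and Cpr65E clusters. The pooled relaxed list put 45 summits in the cuticle clusters, 15.8 per 100 kb against 22.4 over the arms. The gap between clusters and arms was thus narrower in the pooled list than among optimal peaks, where it rests on 1 summit. In the other families' clusters the pooled density was 15.4 (Osi), 17.2 (Cyp) and 9.30 (receptors) per 100 kb. The narrower gap was therefore not particular to the cuticle clusters.

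The optimal summit inside a cluster was that of the Cpr47E cluster on arm 2R, which runs for 26.7 kb from Cpr47Ea to Cpr47Eg and holds 7 members and 3 other protein-coding genes. It lay at 11275836 between Cpr47Ef and Cpr47Eg, 550 bp upstream of TpnC47D, which encodes a troponin C of muscle. It ranked 2702 with a signal of 91.2. In replicates 1, 2 and 3 it ranked 2384, 2850 and 3071, with signals of 45.3, 24.5 and 25.4, so all 3 replicates placed it among their strongest peaks. Neither neighbour held an optimal summit: Cpr47Eg lay 2121 bp and Cpr47Ef 3261 bp from it.

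The 34 outer borders of the clusters had 34 different nearest summits. Their distance from the border ranged from 849 to 229536 bp with a median of 20844 bp, and 1 lay within 1 kb, 8 within 10 kb and 8 beyond 50 kb. To the strongest peaks of each replicate the median was 26510, 20851 and 20543 bp, a mean of 22635 ± 3360 bp (SD, n = 3). Borders of the Cyp clusters had a median of 27953 bp, those of the receptor clusters 56445 bp, and both borders of the Osi cluster a median of 6356 bp. For the 16 clusters with no optimal summit inside, the stretch from one flanking summit to the other had a median of 74.8 kb, with a range of 18.6 to 302.5 kb. Choosing clusters without a summit favours wide stretches, and neither stretches nor border distances were measured at other positions of the arms. For the Cpr47E cluster it was 61.3 kb, with the inner summit in it.

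**Figure D3:**
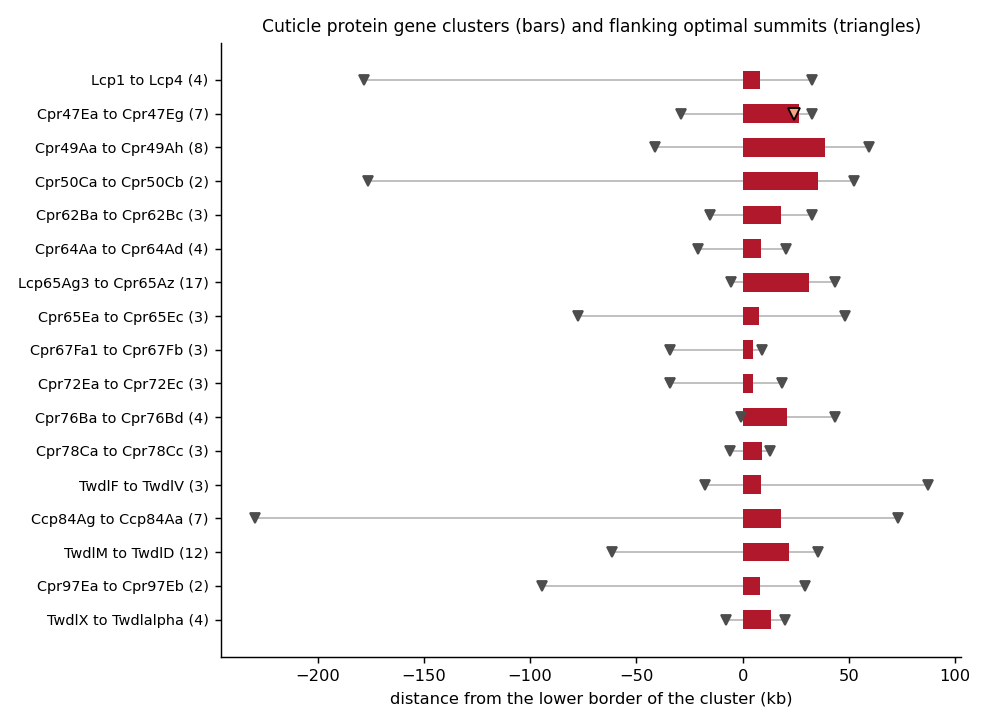
The 17 clusters drawn to scale, with the number of members in brackets: red bars are the clusters, grey triangles the nearest optimal summit beyond each border, and the pale triangle the optimal summit inside a cluster, all as distance from the lower border (kb). Cpr76Ba has a summit 0.85 kb from the border, and the Ccp84 cluster has none for 229.54 kb on its lower side and 54.78 kb on its upper side.

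Most border summits lay at the starts of other genes, at about the share of the optimal set as a whole. Of the 34, 21 (61.8%) lay within 500 bp of a protein-coding start and 22 within 500 bp of any annotated start, 8 in introns, 3 between genes and 1 in an exon. Over the whole optimal set 56.5% of summits lay within 500 bp of a protein-coding start. A median of 4 other protein-coding genes lay between the border and the summit, up to 22, and at 7 borders there was none. The gene next to the border held a summit in its span or within 500 bp of a start at 9 of 34 borders (26.5%), against 23.1% of all genes, so the neighbours' share was near the background. The border summits ranked from 67 to 3682 with a median of 1833, and 21 of 34 were among the strongest 1911 optimal peaks. All 3 replicates had 23 of them among their strongest 3823 peaks, 10 were in 2 replicates and 1 in 1. This count was not made over the whole optimal set, so it shows nothing particular to border summits.

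Border summits differed widely in strength between the 5 clusters of at least 5 members. The Cpr49A cluster, the longest, with 8 members from Cpr49Aa to Cpr49Ah in 38.5 kb, had strong ones. Its lower border summit lay 41.35 kb away, 42 bp upstream of CG8490, and ranked 384, with replicate ranks of 568, 378 and 329 and signals of 99.6, 70.03 and 80.1. Its upper border summit lay 20.76 kb away, 95 bp upstream of DUBAI, and ranked 164, with replicate ranks of 122, 156 and 367 and signals of 189.2, 102.8 and 76.3. The Cpr47E cluster had a lower border summit of rank 754 at 28.89 kb, 15 bp upstream of CG7737, with replicate ranks of 1432, 152 and 131. Its upper border summit, of rank 2249, lay 5.75 kb away and 85 bp upstream of CG13220, with replicate ranks of 2498, 1726 and 18698.

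The cluster with the most members was the Lcp65A cluster, with 17 members from Lcp65Ag3 to Cpr65Az in 31.2 kb. Its lower border summit lay 5.54 kb away in an exon of l(3)mbn, which is the adjacent gene. It ranked 3679, near the end of the optimal set, and the replicates ranked it 10531, 3688 and 2515, with signals of 16.0, 21.0 and 28.6. Its upper border summit lay 12.39 kb away, 100 bp upstream of fmt, and ranked 3598, with replicate ranks of 2015, 3645 and 4836 and signals of 50.01, 21.13 and 19.21.

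The Ccp84 cluster, 7 members from Ccp84Ag to Ccp84Aa in 18.2 kb, had the widest stretch without optimal summits, 302.5 kb. The lower flanking summit, rank 2664, lay 229.54 kb away and 52 bp downstream of the start of Zif, a zinc finger gene, with 21 protein-coding genes in between. It ranked 3222, 1709 and 3793 in the replicates, with signals of 37.2, 33.4 and 22.3. The upper flanking summit, rank 3600, lay 54.78 kb away and 215 bp upstream of bcd, which encodes the maternal anterior morphogen. It ranked 3126, 7721 and 2041 in the replicates, with signals of 38.1, 13.4 and 32.2. The genes next to the cluster were Edg84A, itself a cuticle protein gene, and the Hox gene pb, and neither held a summit. The pooled relaxed list had 0 summits inside the cluster, and the relaxed lists of replicates 1, 2 and 3 had 1, 0 and 1.

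The TwdlM to TwdlD cluster held 12 Twdl genes in 21.9 kb and no other protein-coding gene. Its lower flanking summit lay 61.44 kb away in an intron of scrib, which encodes a protein of epithelial polarity, and ranked 1488, with replicate ranks of 1402, 2432 and 1777 and signals of 62.5, 27.0 and 34.9. Its upper flanking summit lay 13.75 kb away in an intron of beat-VII, ranked 2854, and had replicate ranks of 4066, 2692 and 2420 and signals of 31.8, 25.3 and 29.2. The protein-coding start nearest to this summit, 1632 bp away, was that of Tb (Tubby), which also encodes a Tweedle protein but does not have a Twdl symbol. With Tb counted, the cluster would run on to 13 genes and 38.4 kb and hold that summit. Adding the 7 other cuticle protein genes listed further on brought no other border summit inside a cluster.

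Of the smaller clusters, the Cpr76B cluster had the nearest border summit, 849 bp beyond the 3′ end of Cpr76Ba and 1629 bp downstream of its start. It ranked 1561 with a signal of 128.0, and 2512, 2067 and 806 in the replicates with signals of 44.0, 29.8 and 53.4. No protein-coding gene lay between it and Cpr76Ba. The strongest border summit, chosen for mention after its values were seen, flanked the Cpr78C cluster 3.42 kb away, 72 bp from the start of CG11309, at rank 67 with a signal of 530.6. Its replicate ranks were 60, 72 and 79, and the replicates thus placed it almost alike.

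The 101-base windows of 4 border summits are shown to set beside the windows of the members' own starts further on. They were read from the plus strand of the same genome, and the letters CGATA on either strand (TATCG where read from the other strand) are in capitals. CGATA, which is part of the DREF motif TATCGATA of many housekeeping promoters, was in 8 of 34 border windows (23.5%) and in 18.5% of all 3823 optimal summit windows. Here the window by fmt, on the side of Cpr65Az, holds it on both strands and the other 3 hold none. Of the other motifs sought on both strands, TATAAA was in 4 of 34 border windows (11.8%) and 20.6% of all optimal windows. TATCGATA was in 0 border windows and 2.01% of all optimal windows, GAGAG in 8.82% and 9.73%, and CANNTG in 20.6% and 35.7%. The paired-domain core GTCACGC was in 0 border windows and 0.366% of all. Median GC content was 33.7% in both sets. A match is a description of letters only.
Cpr76Ba side (chr3L:19516653-19516753, plus strand): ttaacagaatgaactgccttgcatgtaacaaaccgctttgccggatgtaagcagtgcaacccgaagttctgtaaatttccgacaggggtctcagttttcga
Cpr65Az side (chr3L:6173930-6174030, plus strand): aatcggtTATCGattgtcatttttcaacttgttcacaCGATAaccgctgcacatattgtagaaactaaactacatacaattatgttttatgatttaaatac
Ccp84Aa side (chr3R:6759631-6759731, plus strand): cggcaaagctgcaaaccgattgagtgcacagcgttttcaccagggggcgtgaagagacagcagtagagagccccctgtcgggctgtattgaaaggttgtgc
TwdlD side (chr3R:26654758-26654858, plus strand): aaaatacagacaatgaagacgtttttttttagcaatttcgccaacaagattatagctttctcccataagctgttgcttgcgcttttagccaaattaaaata

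The pooled relaxed list showed where weaker peaks fell among the members. It put a summit in the span of 23 of 117 members (19.7%), against 46.1% of all genes, and within 500 bp of a start of 14 members, against 53.3%. Among genes of at most 2 kb it did so in the span of 11 of 98 members (11.2%), against 23.1%. By family, 17 of 70 Cpr genes, 5 of 25 Twdl genes, 1 of 15 Lcp genes and 0 of 7 Ccp84 genes had one in the span. Of the 23 members with a pooled summit in the span, 5 (21.7%) had one among the strongest 15000 peaks of the list, against 61.2% of the 6431 genes with one, and the members' median best rank was 22010 against 11524. The 6431 genes include 1386 with an optimal summit in the span, and the ranks were not matched for span.

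After Cpr73D the strongest pooled summit at a member was that of Cpr51A, rank 4772 with a signal of 61.98, inside the gene. The replicates ranked it 4419, 11917 and 5709, with signals of 30.1, 10.4 and 17.4. An optimal summit of rank 3212 lay 3079 bp upstream of the start of Cpr51A, and that start was the nearest to it. Cpr72Eb followed at rank 9181, 484 bp from its start, with ranks of 7563 and 10671 in replicates 1 and 2 and no match in replicate 3. Cpr64Ad had rank 9372, with a match in all 3 replicates at ranks 17172, 13505 and 26741. Lcp9 had rank 9877 and Cpr62Ba rank 11673, and both were matched in replicates 2 and 3 but not in replicate 1. The other 4 of the strongest 10 members were Cpr23B (14324), Cpr65Au (15085), TwdlF (16887) and Cpr47Ef (16896). Cpr23B and Cpr65Au were matched in replicate 3 alone, TwdlF in replicate 1 alone, and Cpr47Ef in all 3, beyond rank 20000 in each. Of the 117 members, 28 had a pooled summit in the span or within 500 bp of a start and 89 had none. By this combined criterion all genes were not counted, so the 28 has no background share.

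The pooled peaks inside the clusters were weaker and less often matched than the list as a whole. Of 45, 1 (2.22%) ranked within the strongest 3823, which make up 12.7% of the list, and 23 (51.1%) ranked beyond 20000, a range that makes up 33.3% of it. Their median rank was 20040. A summit within 200 bp in all 3 replicates was found for 9 of the 45, against 31.8% of all pooled peaks, 9 more were matched in 2 replicates, 24 in 1 and 3 in none. Matching was not compared at equal ranks, so it is not shown to differ apart from the weaker ranks. The same replicate summit could also match several pooled peaks. Of all 45, 11 lay in the Lcp65A cluster. The strongest of these ranked 4494 with a signal of 65.1 and lay 436 bp upstream of CG13297, a gene inside the cluster that has no cuticle protein symbol. It ranked 4859, 2504 and 11041 in the replicates. A peak of rank 4504 in the Cpr65E cluster, named after its values were seen, lay 2186 bp upstream of Cpr65Eb and ranked 3603, 7372 and 14019. The Lcp1 to Lcp4, Cpr76B and Ccp84 clusters had no pooled peak, and the 12 genes of the TwdlM to TwdlD cluster shared 1, of rank 28520, in TwdlP.

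**Figure D4:**
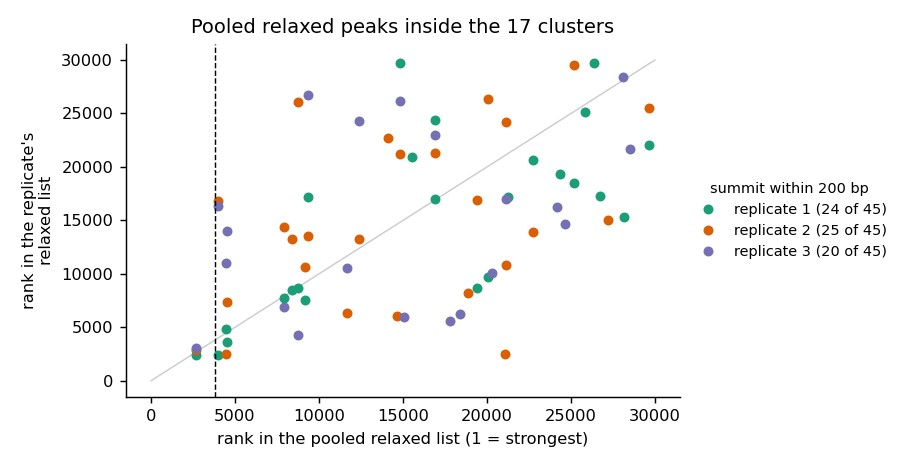
Each of the 45 pooled relaxed peaks inside the clusters by its rank in the pooled list and the rank of the summit within 200 bp in each replicate's relaxed list; 1 is the strongest, the dashed line marks the 3823 peaks of the optimal set and the grey line equal ranks. Only the Cpr47E peak lies to the left of the dashed line, and replicates 1, 2 and 3 have a match for 24, 25 and 20 of the 45.

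The share of repeated sequence is given because reads from near-identical copies cannot be placed and peaks there may go unseen. Of all 50-base words in the clusters, 2.38% occurred more than once in the whole genome assembly, on either strand, against 11.4% of all words on the 6 arms. The arms were taken over their whole length, and no share was computed for other gene regions alone. The share was 15.7% in the Lcp65A cluster, 4.62% in the TwdlM to TwdlD cluster, 3.88% in the Ccp84 cluster and 1.42% in the Lcp1 to Lcp4 cluster. Of the 117 members 94 held no repeated word and 7 held more than 50%, all of them in the Lcp65A cluster. Cpr65Ax1, Cpr65Ax2, Lcp65Ab1 and Lcp65Ab2 were repeated throughout (100%), and Lcp65Ag1, Lcp65Ag2 and Lcp65Ag3 at 70.1%, 62.0% and 61.1%. In Cpr73D the share was 48.8%, but 0% in its optimal peak. None of the 94 members without repeated words held an optimal summit in its span. All genes without repeated words were not counted for comparison, and whether repeats have a part in the absence of peaks was not tested. For the 7 mostly repeated members an absence of peaks cannot be told apart from reads that could not be placed. No source used here gives the length of the reads or the treatment of reads with several matches.

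A core promoter motif that the rule did not use was present in more than 50% of the members. The TATA box, a site at which the general transcription machinery assembles, is represented here by the letters TATAAA on the gene's own strand with the first base 40 to 20 bases before the annotated gene start. It was present in 65 of 117 members (55.6%), against 7.79% of all 13945 protein-coding genes and 2.14% of the 2714 genes with an optimal summit within 500 bp of a start. By family it was in 34 of 70 Cpr, 5 of 7 Ccp84, 11 of 15 Lcp and 15 of 25 Twdl genes. Members are related by duplication, so these are not independent cases, and no test was made. The motif was sought only at the gene's outermost annotated start, while a summit could lie near any annotated start. Motif and summit may therefore belong to different promoters of a gene.

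**Figure D5:**
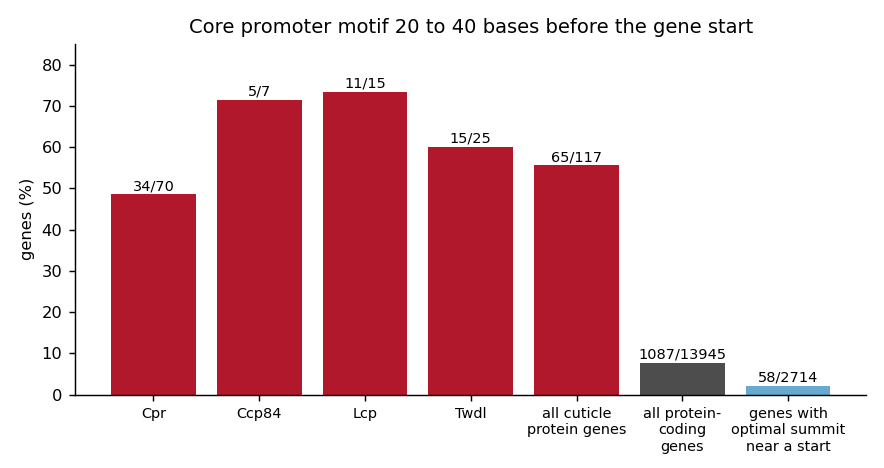
Share of genes (%) with the core promoter motif on the gene's strand 20 to 40 bases before the annotated gene start, with counts above the bars: 4 families of cuticle protein genes and all of them (red), all protein-coding genes (grey) and genes with an optimal summit within 500 bp of a start (blue). The lowest red bar is that of the Cpr genes, 34 of 70, the grey bar is at 7.79% and the blue bar at 2.14%.

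The motif and the optimal summits were also counted outside the family. Among the 1022 other genes with the motif at that place 58 (5.68%) had an optimal summit within 500 bp of a start, against 20.7% of the 12806 other genes without it. Since no member had such a summit, the 65 members with the motif and the 52 without it cannot be compared, and whether the motif has a part in the absence of peaks was not tested. Gene length and expression also differ between such genes and were not matched. Here too the motif was read at the outermost start only, and the summit could lie near another start.

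In the wider promoter, from 250 bases before to 50 bases after the gene start and on both strands, TATAAA was in 74.4% of members, 45.8% of all genes and 46.5% of genes with an optimal summit near a start. TATCGATA was in 1 member (0.855%), 9.36% of all genes and 15.3% of genes with a summit near a start. CGATA, which overlaps it, was in 35.0%, 47.4% and 56.4%. GAGAG, the letters of the GAGA factor's motif, was in 30.8%, 29.7% and 28.1%, and the E-box letters CANNTG were in 82.1%, 77.2% and 75.6%. GTCACGC was in 0.855%, 1.51% and 2.10%. The median GC content was 44.0% in the members' promoters and 38.0% in all promoters. It was 36.8% in the promoters of genes with an optimal summit within 500 bp of a start. Each gene's promoter was read at its outermost annotated start, while that summit could lie near any of its starts. The promoter read may therefore not be the one by the summit.

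The 60 bases before the start of each of the 7 genes of the Ccp84 cluster are shown because this cluster lies farthest from any optimal summit and its genes share the motif. Each is from the NCBI Release 6 genome on the gene's own strand, ends with the base before the annotated start, and has TATAAA in capitals. In Ccp84Af the first base of the motif lies 50 bases before the start, outside the stretch counted above, and Ccp84Ad has none, while the other 5 have it 29 to 32 bases before the start.
Ccp84Ag (chr3R:6686668-6686727, plus strand): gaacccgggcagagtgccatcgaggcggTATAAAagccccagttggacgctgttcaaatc
Ccp84Af (chr3R:6690240-6690299, minus strand): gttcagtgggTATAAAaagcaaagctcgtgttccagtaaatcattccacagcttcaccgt
Ccp84Ae (chr3R:6691759-6691818, minus strand): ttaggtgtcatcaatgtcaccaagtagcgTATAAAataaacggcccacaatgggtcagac
Ccp84Ad (chr3R:6692672-6692731, plus strand): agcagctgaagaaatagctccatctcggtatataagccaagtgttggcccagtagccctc
Ccp84Ac (chr3R:6696272-6696331, minus strand): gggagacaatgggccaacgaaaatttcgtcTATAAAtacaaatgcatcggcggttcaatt
Ccp84Ab (chr3R:6702878-6702937, minus strand): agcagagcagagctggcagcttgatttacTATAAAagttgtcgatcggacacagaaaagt
Ccp84Aa (chr3R:6704024-6704083, plus strand): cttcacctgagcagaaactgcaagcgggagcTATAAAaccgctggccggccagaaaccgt

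The starts of 7 members of other clusters are shown in the same way. Lcp65Ab1 and Lcp65Ab2, and likewise Cpr65Ax1 and Cpr65Ax2, are the near-identical copies in which every 50-base word is repeated, and within each pair the annotated start falls at a slightly different base: TATAAA begins 31 and 28 bases before it in the first pair and 26 and 27 in the second. TwdlM and TwdlD are the outer genes of the large Twdl cluster, and Cpr76Ba is the gene with the nearest border summit. All 7 have TATAAA, with the first base 26 to 31 bases before the start.
Lcp65Ab1 (chr3L:6149488-6149547, plus strand): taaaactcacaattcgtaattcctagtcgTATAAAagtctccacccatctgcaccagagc
Lcp65Ab2 (chr3L:6146614-6146673, plus strand): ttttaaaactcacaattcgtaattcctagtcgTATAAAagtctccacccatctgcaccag
Cpr65Ax1 (chr3L:6147988-6148047, minus strand): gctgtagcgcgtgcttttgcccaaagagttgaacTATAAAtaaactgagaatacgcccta
Cpr65Ax2 (chr3L:6150858-6150917, minus strand): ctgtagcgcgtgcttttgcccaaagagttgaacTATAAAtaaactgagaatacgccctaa
TwdlM (chr3R:26619058-26619117, plus strand): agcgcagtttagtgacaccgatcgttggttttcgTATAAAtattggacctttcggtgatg
TwdlD (chr3R:26639965-26640024, plus strand): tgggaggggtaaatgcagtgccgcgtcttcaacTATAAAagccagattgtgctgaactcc
Cpr76Ba (chr3L:19518333-19518392, minus strand): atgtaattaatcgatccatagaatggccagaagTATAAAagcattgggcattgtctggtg

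Genes of the surrounding pathways were counted from lists chosen with earlier results of these data known, each with a summit in the span or within 500 bp of a start, a criterion that 23.1% of all protein-coding genes met. Of 8 further cuticle protein genes outside the symbol rule (Pcp, Acp1, resilin, Acp65Aa, Edg78E, Edg84A, Edg91 and Tb) 0 met it. Of 8 listed genes of cuticle tanning and pigment AANAT1 was not found under that symbol. Of the other 7, such as Ddc and ple, which make and process dopamine, 0 met it. Of 11 genes listed for chitin synthesis and assembly 2 did, nesd at rank 2462 and Gnpnat, an enzyme of the amino sugar pathway, at rank 3633. However, nesd is not an established gene of chitin synthesis, so this count holds only for the list as it was planned. The chitin synthase genes kkv and Chs2 had none. Of 12 genes of chitin binding and turnover 1 did, the chitinase gene Cht7, whose summit ranked 394 with a signal of 253.4 and lay 214 bp from its start. It ranked 251, 508 and 842 in the replicates, with signals of 140.8, 61.7 and 52.2. Of 12 zona pellucida domain proteins of the apical matrix 3 did, pot (rank 1145), dpy (1478) and cyr (3510), all in introns.

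The regulators of cuticle genes stood at the other end, with 7 of 10 (70.0%) meeting that criterion. The strongest summit was in an intron of Hr3, a nuclear receptor of the ecdysone cascade, at rank 76 with a signal of 507.7. It ranked 48, 90 and 142 in the replicates, with signals of 261.3, 126.6 and 115.6. Eip75B, another such receptor, had rank 607 and replicate ranks of 742, 408 and 627. grh, which encodes the epidermal factor Grainy head, had rank 638 and replicate ranks of 459, 1152 and 1282. EcR, the ecdysone receptor gene, had rank 693 and replicate ranks of 973, 268 and 1023, and br, an early ecdysone gene, had rank 1013 and replicate ranks of 1136, 1062 and 859. All 5 summits thus ranked 1282 or better in every replicate. The other members with a summit were ftz-f1, a nuclear receptor gene, at rank 1730 and usp, which encodes the partner of the ecdysone receptor, at rank 1762. The 7 genes ranged in span from 3514 bp for usp, whose summit lay 194 bp from its start, to 113744 bp for Eip75B, which held 5 optimal summits, and the count was not matched for span. Hr38, Blimp-1 and vvl did not meet the criterion, with the nearest optimal summit at 542, 19036 and 21470 bp.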

How the data were processed

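Per the labels, ChIP-seq of GFP-tagged sv was done on whole larvae in 3 biological replicates, and per the deposited manifests against a shared control, not analysed here. The authors deposited an optimal peak set, a pooled relaxed list and a relaxed list per replicate on dm6. No source used here gives the peak caller, aligner or threshold. The authors' deposited signal values served only to rank peaks within a list. Read depth is unknown, so no counting interval is given. The optimal peaks are the strongest 3823 of the pooled list.

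Summits (peak start plus the deposited offset, counted from 1) were set against Ensembl release 115 genes (BDGP6 6.54) and the NCBI Release 6 genome with Python 3.11.15, numpy 2.4.6 and pandas 2.3.3. Replicate summits matched within 200 bp. The counting functions were tested on simulated data. With 1 group no test was made and no samples were paired. The members, gene lists, motifs and alternatives were chosen with earlier results of these data known. The stretch for TATAAA before the start was added later.

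Genes were named by a rule: members with an optimal summit in the span or within 2 kb upstream, the outer members of clusters of at least 5 and the genes at their border summits, the 10 members with the strongest pooled summits, the 3 farthest from and the 3 nearest to an optimal summit, and up to 5 genes with a summit per pathway list. Genes without a summit named from the pathway lists, TwdlP, CG13297 and members named for repeated sequence or motifs were picked with their values in view. The alternatives tried were other windows and cluster gaps, peak intervals, and the strongest 1911 optimal and 15000 pooled peaks. Other numbers of replicate peaks and a wider gene rule were also tried. Each replicate was also left out, for optimal peaks by requiring a match among the strongest peaks of the others.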

Additional observations from a re-analysis of the deposited data

How the results depend on the processing

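No paired analysis was possible because there was 1 group. The count of 1 member with an optimal summit in its span rose to 27 with 10 kb on either side. It was 0 in the strongest 1911 optimal peaks and 0 to 1 with each replicate left out. For optimal summits, leaving out a replicate meant keeping the optimal peaks with a match among the strongest peaks of each other replicate. The optimal set itself still rested on all replicates. The main setting asks for no such match, so these values reflect a stricter filter, not a set made without that replicate. The member count was 0 without replicate 1 or without replicate 3, as the Cpr73D summit had no match in replicate 2. The count within 500 bp of a start, 0, was 1 within 1000 bp and otherwise 0. The count of optimal summits inside clusters, 1, was 0 in the strongest 1911, 1 with each replicate left out, and 2 with the 8 other cuticle protein genes added, an alternative chosen after seeing the data. The median distance from a member was 32311 bp in the strongest 1911 (all genes 15260 bp) and 19853 to 26523 bp with a replicate left out (all genes 10146 to 10278 bp). The median border distance was 31484 bp in the strongest 1911, 20844 to 26509 bp with a replicate left out, and 20844 to 21103 bp with other cluster gaps. Fewer peaks lengthen distances by construction: 2591 to 2710 optimal peaks remained after that match to the other replicates. The members' mean share in the strongest replicate peaks, 0.855%, was 0.285% with a smaller number of peaks (1911) (all genes 5.79%), 2.56% with 2 times as many (17.9%), 19.1% in the whole lists (48.4%) and 0.855% with any replicate left out. The pooled share of 19.7% was 4.27% in the strongest 15000 peaks of that list (28.2%). In each setting with a value for all genes, the members' share was lower or their distance longer. These settings were not matched for gene span. Depth is unknown, so an absent peak is not shown to be absent binding.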
